A study of Mus musculus with 9 samples.

Results

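Antigen presentation genes were described in hepatic stellate cells, liver pericytes that store vitamin A, sorted from mice with chemically injured livers. The set held the genes of the mouse major histocompatibility complex (MHC), whose names begin with H2-, together with B2m, Tap1, Tap2, Tapbp, Erap1, Nlrc5, Cd74 and Ciita. In the deposited table of 35024 rows 53 names matched. Of these, 4 pseudogene names were dropped and 17 more were dropped because they stood at the lowest value of the table, a count of 0, in more than 5 of the 9 libraries. The 32 genes kept comprised 24 of the class I pathway, 7 of the class II pathway and H2-Ke6, an oxidoreductase gene that has an H2- name only by its position. Of the 17 names dropped, 11 had no count in any library and 4 were class II names. At the edge of that rule, H2-Q2 stood at 0 in 5 libraries and was kept, with 1 or 2 recovered counts in the other 4, whereas H2-T3 and H2-DMb2 stood at 0 in 6 libraries and were left out.

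MHC class I molecules display peptides from inside the cell to CD8 T cells. A heavy chain (H2-K1 or H2-D1 in the classical forms of this strain) pairs with the light chain B2m, and the transporter Tap1 with Tap2 feeds peptides into the endoplasmic reticulum, where tapasin (Tapbp) loads them. Class II molecules display peptides taken up from outside the cell to CD4 T cells and are typical of dendritic cells, B cells and macrophages. Their chains are guarded by the invariant chain Cd74 until H2-DM exchanges it for a peptide. Nlrc5 and Ciita are the transactivators of the class I and the class II genes, and interferon gamma is the best known inducer of both pathways. Stellate cells have been described as able to present antigen.

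The groups were YAP-deleted (LYT006, LYT008, LYT013 and LYT016), from mice with floxed Yap1 and Cre under the Lrat promoter, and control (LYT004, LYT005, LYT014, LYT015 and LYT017), from mice with floxed Yap1 and no Cre. Yap1 encodes a transcriptional coactivator of the Hippo pathway, and Lrat, which esterifies retinol, is active in stellate cells. Both groups were on a C57BL/6J background and received carbon tetrachloride, a hepatotoxin, in 6 injections spaced 3 days apart, with cells sorted by retinoid autofluorescence 2 days after the last one. Every YAP-deleted mouse carried Cre and no control did, so an effect of Cre and an effect of Yap1 loss cannot be told apart. The labels do not state that each library came from its own mouse, and p-values therefore measure the spread between libraries, which may be partly technical.

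Recovered totals were 14052502 to 31816055 counts per library, and counts divided by a library's size factor are called normalised counts. Differences and deviations were taken on the deposited log2-like scale, which understates changes of low genes, and its units are called log2 units. All 13 stellate cell marker genes were above 0 in every library. Yap1 had 642, 648 and 645 normalised counts in LYT006, LYT008 and LYT016 and 2529.8 in LYT013, against 2902, 2915, 3653 and 3551 in LYT004, LYT005, LYT015 and LYT017 and 618 in LYT014. The library labelled YAP-deleted LYT013 and the library labelled control LYT014 thus went against their labels. As labelled, the Yap1 difference came to −1.30 ± 0.54 (SE, log2 units), with adjusted p = 0.649 in limma and p = 0.0794 in an exact two-sided permutation test over 126 regroupings. Each comparison is therefore given with all 9 libraries as labelled and with the 7 libraries that remain without LYT013 and LYT014. No library was moved to the other group.

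Of the 32 genes, 27 lie in the MHC region of chromosome 17, between positions 33915899 and 37483552 on GRCm38. B2m (122147686 to 122153083) lies on chromosome 2, Nlrc5 on chromosome 8, Erap1 on chromosome 13 and Ciita on chromosome 16. H2-K1 spans 33996017 to 34000347 on the minus strand, H2-D1 35262730 to 35267499, H2-Q7 35439155 to 35443773 and Tap1 34187553 to 34197225, all on the plus strand, and H2-Aa 34282744 to 34287823 on the minus strand. Many of the heavy chain genes are close copies of each other. Of the 31-base words in the H2-D1 transcripts, 26.7% also occurred in transcripts of other genes, and the shares were 22.8% for H2-K1, 39.1% for H2-Q7, 50.3% for H2-Q6, 57.9% for H2-Q5 and 51.0% for H2-T22. How reads were divided among these copies is uncertain, whereas B2m and Nlrc5 shared no such word and Tap1 and Tap2 shared 0.825% and 1.34%. The heavy chain genes H2-M2, H2-M3, H2-M5 and H2-T24 shared 2.24% to 6.43%.

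Promoters of 21 of the 32 genes were found in RefSeq (GRCm38.p6), as 250 bases before and 50 after the RefSeq start of the gene. For H2-D1 this start lies downstream of the gene start given above. The promoters are shown because the class I genes are the larger part of the set. Class I and class II promoters are also known to carry related elements. The windows are chr17:34000298-34000597 for H2-K1 (minus strand), chr17:35262844-35263143 for H2-D1, chr17:35438905-35439204 for H2-Q7, chr2:122147437-122147736 for B2m and chr17:34187306-34187605 for Tap1 (plus strand), and chr17:34287774-34288073 for H2-Aa (minus strand), each written 5′ to 3′ along its gene. Capitals mark matches, on either strand, to ATTGG (the Y box core), TGACG (part of a cyclic AMP response element), an interferon-stimulated response element (TTTC and TTTC with 2 bases between), its shorter form TTTCNNTTC, and a kappa B site (GGGA and CCC on either side of a T that has any base on each side).
H2-K1: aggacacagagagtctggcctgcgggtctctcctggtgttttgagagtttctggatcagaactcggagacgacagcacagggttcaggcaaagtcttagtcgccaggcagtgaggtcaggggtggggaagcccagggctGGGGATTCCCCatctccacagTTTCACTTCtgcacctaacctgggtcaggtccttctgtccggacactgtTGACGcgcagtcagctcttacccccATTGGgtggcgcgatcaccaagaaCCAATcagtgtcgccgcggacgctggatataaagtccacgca
H2-D1: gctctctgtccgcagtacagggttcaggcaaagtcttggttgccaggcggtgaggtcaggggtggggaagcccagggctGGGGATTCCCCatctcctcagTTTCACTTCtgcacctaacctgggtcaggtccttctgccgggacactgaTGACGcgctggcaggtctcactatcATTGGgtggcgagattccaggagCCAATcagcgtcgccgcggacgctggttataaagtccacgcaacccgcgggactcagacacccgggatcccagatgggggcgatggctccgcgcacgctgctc
H2-Q7: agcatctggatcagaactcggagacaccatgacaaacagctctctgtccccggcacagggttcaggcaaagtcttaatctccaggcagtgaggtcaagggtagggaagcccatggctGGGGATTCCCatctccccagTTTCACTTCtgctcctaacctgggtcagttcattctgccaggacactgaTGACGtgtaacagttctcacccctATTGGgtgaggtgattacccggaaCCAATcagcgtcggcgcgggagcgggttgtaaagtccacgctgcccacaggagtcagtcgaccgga
B2m: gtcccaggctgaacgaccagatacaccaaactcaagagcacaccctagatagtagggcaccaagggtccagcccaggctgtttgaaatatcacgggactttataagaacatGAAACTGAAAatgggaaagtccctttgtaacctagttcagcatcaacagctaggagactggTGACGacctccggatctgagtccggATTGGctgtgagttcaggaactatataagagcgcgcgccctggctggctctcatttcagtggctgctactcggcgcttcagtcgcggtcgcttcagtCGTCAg
Tap1: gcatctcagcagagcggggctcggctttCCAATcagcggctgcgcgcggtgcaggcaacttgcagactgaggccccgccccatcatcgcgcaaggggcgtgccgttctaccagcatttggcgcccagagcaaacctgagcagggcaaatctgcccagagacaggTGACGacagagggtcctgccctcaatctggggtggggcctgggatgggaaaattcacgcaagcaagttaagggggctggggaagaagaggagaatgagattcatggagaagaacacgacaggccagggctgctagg
H2-Aa: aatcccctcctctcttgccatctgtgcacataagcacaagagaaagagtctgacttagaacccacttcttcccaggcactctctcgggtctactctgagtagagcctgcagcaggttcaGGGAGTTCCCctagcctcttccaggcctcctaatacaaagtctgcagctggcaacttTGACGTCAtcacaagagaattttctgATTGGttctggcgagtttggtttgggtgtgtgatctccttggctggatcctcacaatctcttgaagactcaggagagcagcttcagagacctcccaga
In H2-K1, H2-D1 and H2-Q7 the matches ran in 1 order: the kappa B site, the short interferon form, the cyclic AMP element, the Y box core and, farther on, the Y box core on the other strand. In H2-K1 and H2-D1 the kappa B stretch holds 2 overlapping matches, and in H2-Aa the 2 TGACG matches overlap on opposite strands. ATTGG was found in 17 of the 21 promoters, against 37.9% of the 27025 promoters in the RefSeq table, and TGACG in 10 of 21, against 21.0%. The kappa B site was found in 6 of 21, against 1.05%, and the full interferon element in 4 of 21, against 3.49%. The short form TTTCNNTTC, added after the promoters had been seen, was found in 8 of 21, against 7.56%, and the gamma-activated site TTCNNNGAA in 1 of 21, against 8.47%. These are matches of letters in the reference sequence, and several of the promoters are copies of each other.

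Class I transcripts were among the most abundant of the sorted cells and class II transcripts were scarce. By mean normalised count over the 9 libraries, B2m ranked 21 of 35024 rows, H2-D1 29 and H2-K1 51. B2m took 0.299% to 0.517% of all counts in a library and H2-D1 0.217% to 0.402%. Per kb of transcript, B2m averaged 87031 normalised counts, H2-D1 27689, H2-K1 23179 and H2-Q4, a Qa-region heavy chain, 5768. The ranges of H2-D1 and H2-K1 over libraries overlapped. Within each library, H2-D1 had 1.33 to 1.70 times the normalised counts of H2-K1, before division by length. Tap2 and Tap1, the subunits of the peptide transporter, averaged 519 and 517 per kb, close to each other, and Nlrc5 112. Cd74 was the highest class II gene, at 97.8 per kb, followed by H2-Ab1 at 44.2, H2-Aa at 40.6 and H2-Eb1 at 22.4, whose ranges overlapped. Ciita was near the detection limit at 0.789 per kb.

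**Figure D1:**
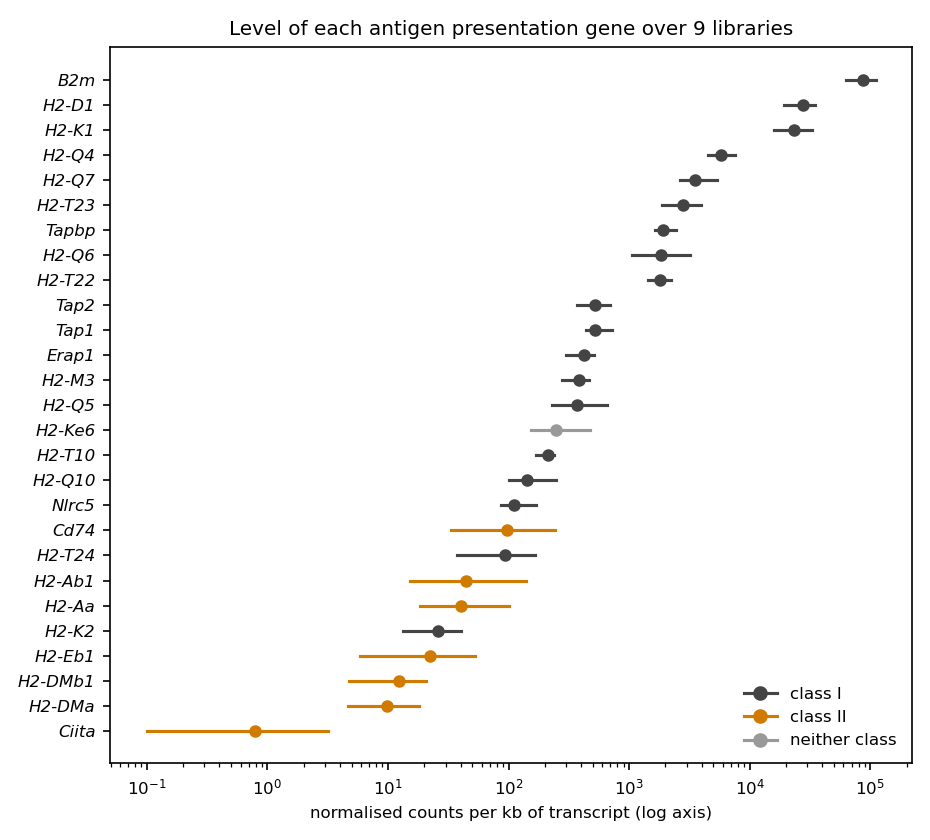
Level of each of the 27 antigen presentation genes above 0 in every library, in normalised counts per kb of the longest protein-coding transcript (or of the longest transcript where none is coding), on a log axis. Points are means and lines run from the lowest to the highest of the 9 libraries. B2m, H2-D1 and H2-K1 lie at the top and the class II genes (orange) in the lower part, with Ciita lowest.

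With all 9 libraries as labelled, no antigen presentation gene passed the test, and 0% of all 17203 tested genes did (limma, Benjamini-Hochberg adjusted p under 0.05). Of the 32 genes limma voom, run on recovered counts, called 0 as well. Adjusted p-values of the 32 genes ran from 0.649 to 0.999. At an unadjusted p under 0.05 there was 1 of 32, Tap2, against 7.22% of all genes. Differences, YAP-deleted minus control, were positive for 19 of the 24 class I genes with a median of 0.17 log2 units, against 49.1% of all genes and a median of −0.0045. No class I gene had groups that did not overlap, against 1.69% of all genes higher without overlap. Without LYT014 alone, 8 of 24 were higher without overlap, against 2.49% of all genes.

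Without LYT013 and LYT014, most class I genes averaged more in the YAP-deleted than in the control libraries, and still no antigen presentation gene passed the test. Limma and limma voom called 0 of the 31 genes tested there (H2-Q2 was filtered out), against 0.0672% of all 16372 genes, which is 0.0183% higher (3 genes) and 0.0489% lower (8 genes). Those 2 counts over all genes were 1 to 3 and 1 to 7 when single libraries were left out, lowest without LYT006. Adjusted p-values of the 31 ran from 0.422 to 0.998. Differences were positive for 18 of 23 class I genes, with a median of 0.21 log2 units, against 48.9% of all genes. In 8 of the 23 every YAP-deleted library lay above every control library, against 3.93% of all genes. These were H2-K1, H2-D1, H2-Q4, H2-Q5, H2-Q7, H2-Q10, H2-T23 and Tap2. No class I gene was lower without overlap, against 3.66% of all genes. At an unadjusted p under 0.05 there were 8 of the 31, against 6.41% of all genes. Genes of 1 pathway and near-identical copies are not independent of each other, and LYT014 is left out by its Yap1 level while it is also the highest control library for most of these genes.

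Among the classical heavy chains, H2-K1 had 43037, 34268 and 39027 normalised counts in the YAP-deleted libraries LYT006, LYT008 and LYT016 and 53682 in LYT013, against 25545, 26764, 34203 and 31760.0 in the control libraries LYT004, LYT005, LYT015 and LYT017 and 49457 in LYT014. LYT013 and LYT014 were the highest of the 9, and the other 3 YAP-deleted libraries lay above the other 4 control libraries, LYT008 only just. The difference was 0.36 ± 0.23 log2 units with 9 libraries (SE; limma adjusted p = 0.653) and 0.39 ± 0.17 with 7 (adjusted p = 0.767). H2-D1 had 73318, 53480.5 and 66329 in the same 3 YAP-deleted libraries and 71591 in LYT013, against 40342, 40374, 53378 and 51229 in the 4 control libraries and 73782 in LYT014. Again LYT008 was the lowest YAP-deleted library, barely above control LYT015, and LYT014 was the highest library of all. H2-D1 differed by 0.38 ± 0.23 with 9 libraries (limma adjusted p = 0.652) and by 0.47 ± 0.20 with 7 (adjusted p = 0.767).

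Of the 16 non-classical heavy chain genes and pseudogenes, 13 had a positive difference with 9 libraries and 11 of the 15 tested with 7. H2-Q7, which encodes a Qa-2 antigen, had 6223, 5328 and 5317 normalised counts in LYT006, LYT008 and LYT016 and 6640.5 in LYT013, against 4040.4, 4191, 4399 and 4099 in LYT004, LYT005, LYT015 and LYT017 and 8092 in LYT014. The 4 control libraries lay close together, all below the YAP-deleted ones, and LYT014 stood at 2.00 times the lowest library. In the 7 libraries H2-Q7 averaged 5623 ± 519.7 in YAP-deleted and 4182 ± 157 in control (SD, n = 3 and 4), and the difference was 0.42 ± 0.09 (SE, log2 units), with the smallest p of the set (adjusted p = 0.422 in limma). With 9 it was 0.29 ± 0.20 (adjusted p = 0.662).

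H2-T23 encodes Qa-1, the ligand of the inhibitory NKG2A receptor of natural killer and T cells. It had 4696, 3926 and 4551 in LYT006, LYT008 and LYT016 and 5065 in LYT013, against 2917, 2749, 3569 and 3444 in the control libraries LYT004, LYT005, LYT015 and LYT017 and 5837 in LYT014. The pattern was that of H2-Q7, with LYT014 highest. H2-T23 differed by 0.47 ± 0.12 with 7 libraries (limma adjusted p = 0.524) and 0.34 ± 0.20 with 9 (adjusted p = 0.649).

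H2-Q6, another Qa-2 gene, had 5363, 2977 and 4390.0 in LYT006, LYT008 and LYT016 and 4291 in LYT013, against 2603, 2204, 3186 and 2524 in LYT004, LYT005, LYT015 and LYT017 and 6707 in LYT014. LYT008 fell among the control libraries, so the groups overlapped. The difference with 7 libraries, 0.65 ± 0.20 (limma adjusted p = 0.619), was the largest of the set, and 50.3% of the H2-Q6 31-base words also occur in other genes. H2-M3, which presents formylated peptides of bacteria and mitochondria, had 675, 549.8 and 572 and, in LYT013, 645, against 398, 421, 542 and 578 in the 4 control libraries and 611 in LYT014. Only control LYT017 exceeded a YAP-deleted library among the 7, and the difference was 0.29 ± 0.14 (limma adjusted p = 0.793). H2-T22 and H2-T10, ligands of gamma delta T cells, differed by 0.16 ± 0.11 and 0.21 ± 0.11 with 7 libraries. H2-Q4, H2-Q5 and H2-Q10, a secreted form known from liver, differed by 0.32 ± 0.10, 0.39 ± 0.12 and 0.21 ± 0.10, and H2-T24 by 0.01 ± 0.36.

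**Figure D2:**
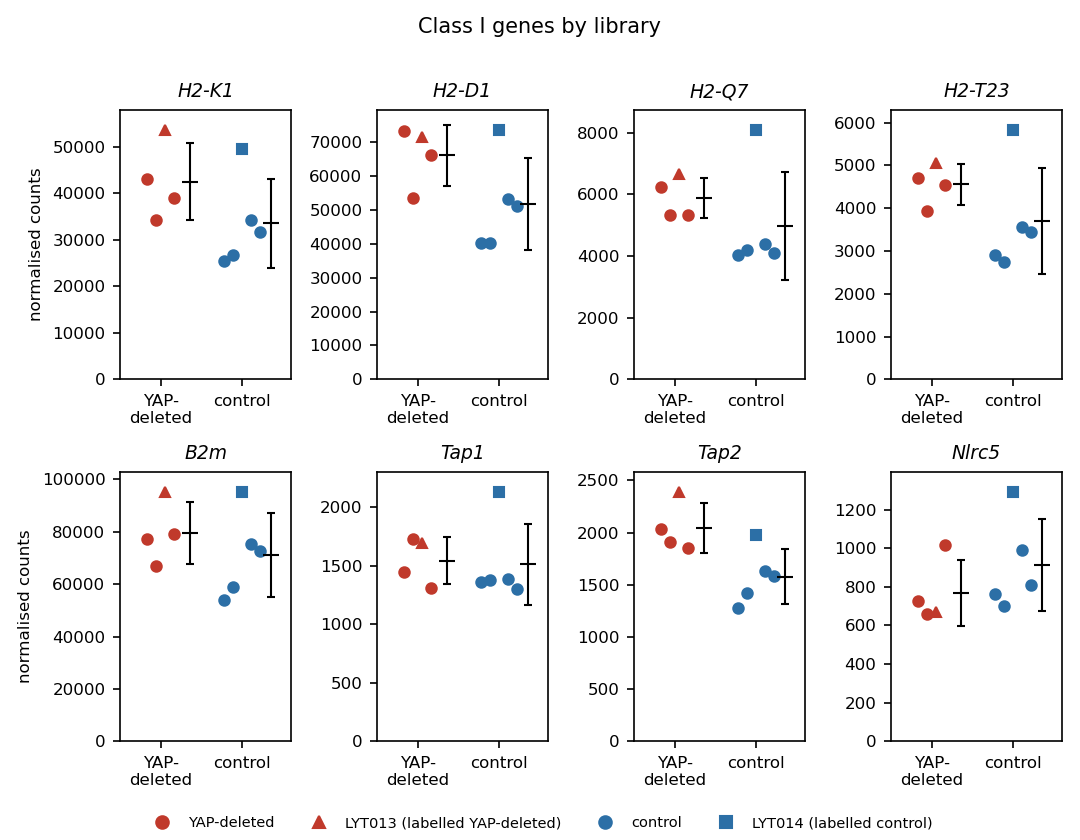
Normalised counts of 8 class I genes in each library, YAP-deleted left (red) and control right (blue), with LYT013 as a triangle and LYT014 as a square. Black bars are the mean ± SD of the libraries as labelled (n = 4 and 5). The square lies above the other control libraries for all 8 genes. The red circles lie above the blue circles for H2-K1, H2-D1, H2-Q7, H2-T23 and Tap2.

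In the assembly group, B2m had 77139, 66723 and 79177 normalised counts in LYT006, LYT008 and LYT016 and 95179.7 in LYT013, against 53966, 58710.1, 75194 and 72515 in LYT004, LYT005, LYT015 and LYT017 and 95019.8 in LYT014. LYT013 and LYT014 were nearly equal and highest, and among the other 7 the groups overlapped. B2m differed by 0.18 ± 0.23 with 9 libraries and 0.20 ± 0.21 with 7 (log2 units and SE, adjusted p in limma = 0.789 and 0.920). The heavy chains were also read relative to their light chain. The summed counts of the 18 heavy chain genes were 1.93, 1.73 and 1.70 times B2m in LYT006, LYT008 and LYT016 and 1.69 times in LYT013, against 1.62, 1.52, 1.50 and 1.46 times in LYT004, LYT005, LYT015 and LYT017 and 1.72 times in LYT014. This ratio lies within a library and does not depend on the scaling between libraries. LYT014 fell among the YAP-deleted libraries, and all other control libraries lay below them.

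Tap2 had 2029.7, 1912 and 1856 normalised counts in LYT006, LYT008 and LYT016 and 2390.4 in LYT013, against 1279, 1417, 1627 and 1581 in LYT004, LYT005, LYT015 and LYT017 and 1976 in LYT014. Of the control libraries LYT014 alone reached the range of the YAP-deleted ones. Tap2 differed by 0.37 ± 0.13 with 9 libraries (limma adjusted p = 0.649), the smallest p of the set there, and by 0.38 ± 0.10 with 7 (adjusted p = 0.524). Its partner Tap1 had 1443, 1725 and 1308 in LYT006, LYT008 and LYT016 and 1698 in LYT013, against 1362, 1377, 1388 and 1300.2 in LYT004, LYT005, LYT015 and LYT017 and 2131 in LYT014. LYT014 was far above the other control libraries, and the rest overlapped. The differences of Tap1 were 0.04 ± 0.15 and 0.12 ± 0.10 with 9 and 7 libraries (limma adjusted p = 0.935 and 0.892), and a difference between Tap1 and Tap2 was not tested.

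Tapbp had 6031, 7084 and 4864 normalised counts and, in LYT013, 6552, against 4879.8, 5871, 4732 and 4815 in the 4 control libraries and 5465 in LYT014. Its groups overlapped, with LYT016 among the control libraries, and it differed by 0.24 ± 0.13 with 9 libraries (limma adjusted p = 0.649). Erap1, the aminopeptidase that trims peptides to length, differed by −0.14 ± 0.14 and 0.01 ± 0.11. Nlrc5, the class I transactivator, had 727, 659.5 and 1017 in LYT006, LYT008 and LYT016 and 670.2 in LYT013, against 764, 703, 990.4 and 811 in LYT004, LYT005, LYT015 and LYT017 and 1292 in LYT014. LYT014 was highest again, LYT013 was among the lowest, and the groups overlapped. Nlrc5 differed by −0.22 ± 0.18 with 9 libraries and −0.04 ± 0.16 with 7 (limma adjusted p = 0.699 and 0.979).

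**Figure D3:**
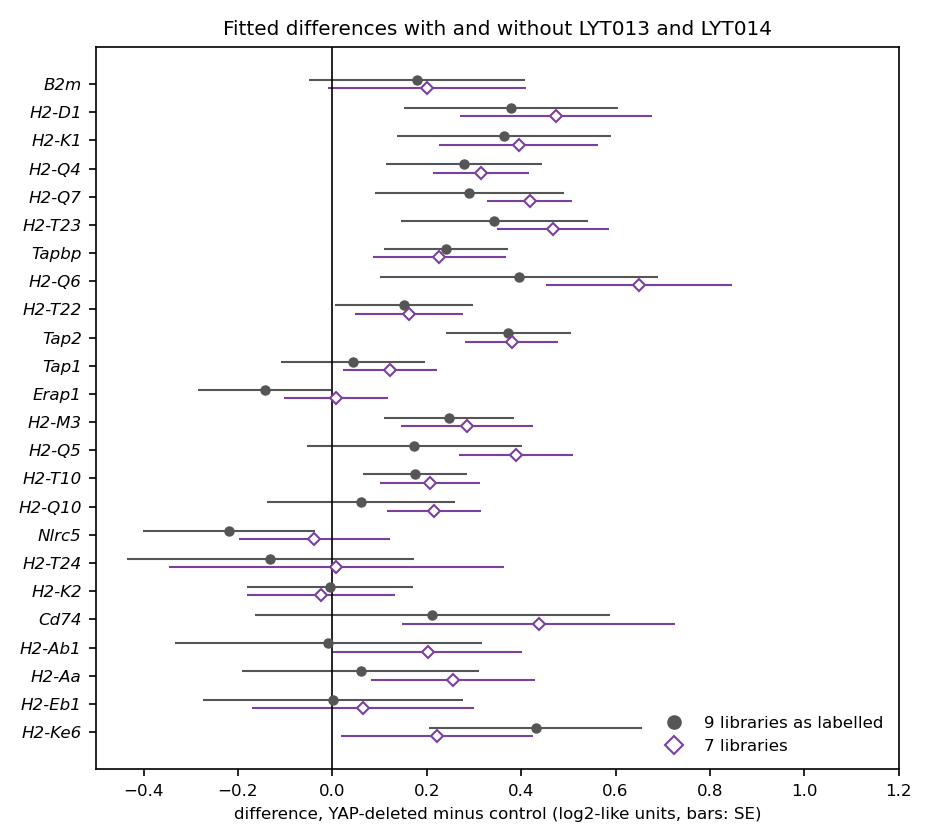
Fitted difference of 24 antigen presentation genes, YAP-deleted minus control, in log2-like units, with all 9 libraries as labelled (filled circles) and with 7 (open diamonds). Bars are the standard error of limma, and the genes shown average at least 35 normalised counts. Most class I differences lie to the right of 0, Nlrc5 lies left of it, and no gene passed the test in either comparison.

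The class II genes were low, and LYT014 held the highest value of 5 of the 7. Cd74 had 133, 63.8 and 202 normalised counts in LYT006, LYT008 and LYT016 and 175 in LYT013, against 61.8, 46.6, 111 and 106 in LYT004, LYT005, LYT015 and LYT017 and 342 in LYT014. H2-Aa, an alpha chain, had 48.4, 25.5 and 56.7 in LYT006, LYT008 and LYT016 and 49.1 in LYT013, against 22.4, 20.9, 38.6 and 36.3 in the 4 control libraries and 115 in LYT014. LYT014 was the highest library for both, and the remaining libraries overlapped. The beta chain H2-Ab1 had 35.8, 28.1 and 60.9 and, in LYT013, 64.0, against 22.4, 18.4, 32.0 and 52.4 in the 4 control libraries and 169 in LYT014. H2-Eb1, a beta chain that lacks its alpha partner in C57BL/6 mice, had 28.8, 12.8 and 45.1 and, in LYT013, 56.8, against 19.2, 9.81, 43.3 and 32.2 and, in LYT014, 88.3. For H2-Ab1 the LYT014 value was 9.16 times that of LYT005, the lowest library.

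Ciita had 2.31, 3.83 and 2.50 normalised counts in LYT006, LYT008 and LYT016 and 0.598 in LYT013, against 3.20, 7.36, 0.942 and 2.69 in LYT004, LYT005, LYT015 and LYT017 and 19.3 in LYT014. LYT014 again stood highest, and every other library held only a few counts. With 9 libraries 4 of the 7 class II differences were positive with a median of 0.0016 log2-like units, and with 7 libraries 5 of 7 with a median of 0.06. The first count was 2 without LYT013 or without LYT005 and 6 without LYT014. At these low levels the log2-like scale understates changes, so the class II differences are not on a par with those of class I. Cd74 differed by 0.21 ± 0.38 and 0.44 ± 0.29, H2-Aa by 0.06 ± 0.25 and 0.26 ± 0.17, and H2-Ab1 by −0.01 ± 0.32 and 0.20 ± 0.20 (9 and 7 libraries, SE), with limma adjusted p-values of 0.843 or more for the 3 genes. H2-DMa and H2-DMb1, the peptide exchange factors, had 9.40 to 36.5 and 6.72 to 28.8 normalised counts over the 9 libraries.

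**Figure D4:**
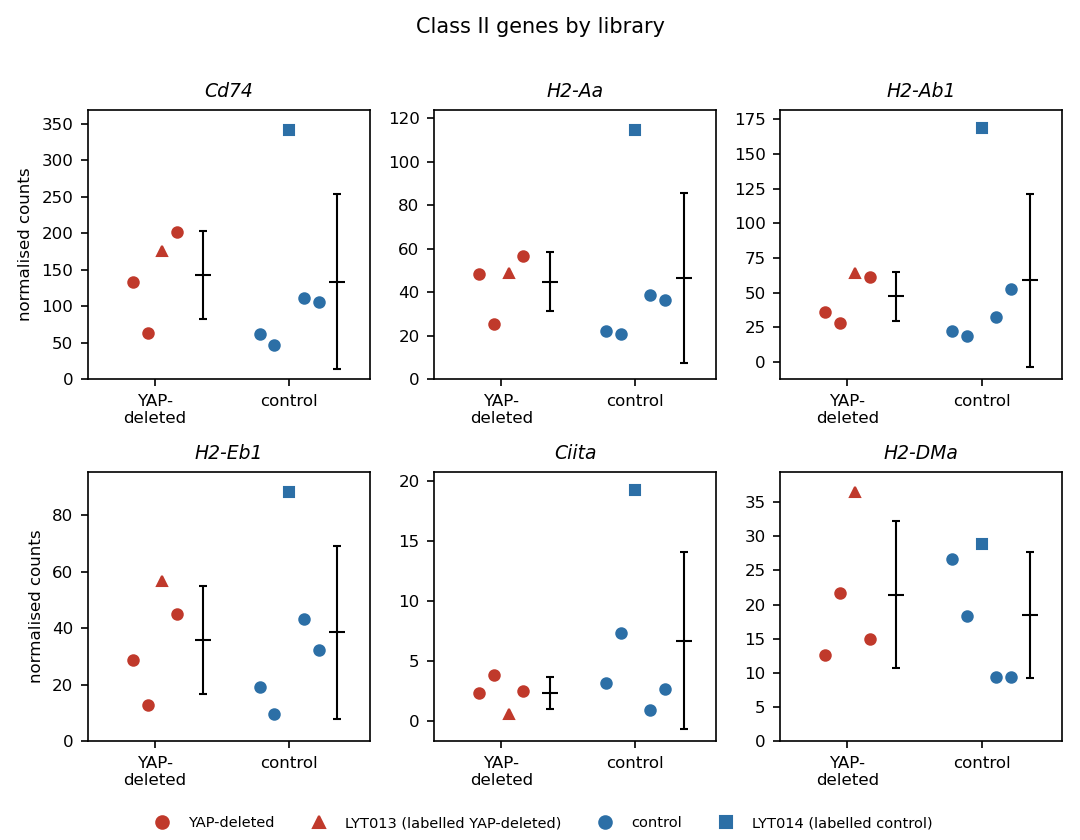
Normalised counts of 6 class II genes in each library, YAP-deleted left (red) and control right (blue), with LYT013 as a triangle and LYT014 as a square. Black bars are the mean ± SD as labelled (n = 4 and 5). The square is the highest point for Cd74, H2-Aa, H2-Ab1, H2-Eb1 and Ciita, and the other points of both groups overlap.

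In bulk samples a larger share of cells of another type and more RNA per stellate cell cannot be told apart, and class II genes are typical of other cells, so their markers were read beside them. The summed level of 19 macrophage and Kupffer cell genes was 2348, 2447, 3083 and 5526 normalised counts in YAP-deleted LYT006, LYT008, LYT013 and LYT016, against 2611, 2453, 2950.0, 3866 and 4404 in control LYT004, LYT005, LYT014, LYT015 and LYT017. LYT016 was highest there and LYT014 was in the middle, but Mertk and Lyz2 supplied most of each sum, with 1195 and 583 in LYT014. The Kupffer cell gene Clec4f had 4.91 to 118 counts. In LYT014 Clec4f, at 68.2, and Cd5l, at 171, were exceeded only by LYT016, at 118 and 288. Vsig4 and Marco of the same list were in the middle in LYT014, at 40.9 and 35.3, against 89.3 and 95.9 in LYT016. Cd74 amounted to 11.6% of the macrophage sum in LYT014 and to 1.90% to 5.69% in the other libraries. Of 9 B cell genes Blk was at 0 in every library and the sum was 16.1, 26.8, 62.2 and 24.2, against 30.9, 20.9, 32.1, 26.4 and 63.1. Of 9 dendritic cell genes Flt3 had a single count in LYT016 and 0 elsewhere, and Zbtb46 supplied most of the sum, which was 1017, 883, 691 and 894, against 791, 812, 1108, 891 and 905. LYT014 had the highest dendritic cell sum and was neither highest nor lowest in the macrophage and B cell sums. The part of these cells in the class II values was not tested.

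The 10 liver endothelial genes summed to 2489.8, 2402, 4328 and 2598 normalised counts in YAP-deleted LYT006, LYT008, LYT013 and LYT016, against 1803, 1408, 4575, 2319 and 3465 in control LYT004, LYT005, LYT014, LYT015 and LYT017. LYT013 and LYT014 were the highest, but Clec4g alone supplied most of the LYT013 sum, at 3086 counts against 1849 in LYT014. The sinusoidal receptor Stab2 had 408 counts in LYT014, 99.3 in LYT013 and 6.13 to 181 elsewhere. Kdr, a receptor of vascular endothelial growth factor, had 482 in LYT014, 90.4 in LYT013 and 6.13 to 118 elsewhere. Both genes, like Cdh5, Stab1, Lyve1 and Oit3, were thus highest in the library with the highest class II values. Pecam1, Tek, Tie1 and Clec4g of the same list were highest in other libraries. In LYT014 and in their highest library Pecam1 had 327 and 521 (LYT006), Tie1 201 and 513 (LYT008), and Tek 295 and 310 (LYT008). The part of endothelial genes in the class II values was not tested. The 12 T and natural killer cell genes summed to 26.5, 33.2, 33.5 and 25.0, against 26.6, 27.0, 37.7, 33.0 and 17.5, with Ncr1 and Gzma at 0 in every library. The 8 neutrophil genes summed to 10.4, 7.65, 18.5 and 11.7, against 6.39, 2.45, 11.2, 4.71 and 10.7. The 11 hepatocyte genes gave 787, 796, 1597 and 1153, against 643, 1206, 439, 1370.2 and 1291, and LYT014 was lowest. The 6 cholangiocyte genes gave 213, 114, 47.3 and 139, against 157, 98.1, 49.0, 142 and 73.9, and the 9 mesothelial and portal fibroblast genes 8642, 8821, 3475 and 5091, against 9407, 8356, 6363, 4676 and 3734.

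Taking the libraries one by one, LYT013 was the highest of 9 for 8 of the 32 genes, against 26.8% of all genes, a share near its background. LYT014 was highest for 14 of 32, 9 of class I and 5 of class II, against 9.26% of all genes. Both lay above the other 7 libraries for 11 of 32, against 4.16%. Within its own label LYT013 exceeded the other 3 YAP-deleted libraries for 16 of 32, against 36.3%, and LYT014 exceeded the other 4 control libraries for 23 of 32, against 18.4%. At the low end, control LYT004 and LYT005 both lay below the other 7 for 11 of 32, against 6.45%. The median deviation of the 19 class I genes above 0 in every library from their own means was 0.12, −0.02, 0.26 and 0.08 log2 units in LYT006, LYT008, LYT013 and LYT016, against −0.33, −0.31, 0.38, −0.09 and −0.20 in LYT004, LYT005, LYT014, LYT015 and LYT017. For the 7 class II genes it was 0.78 in LYT014 and −0.44 to 0.27 in the other libraries.

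**Figure D5:**
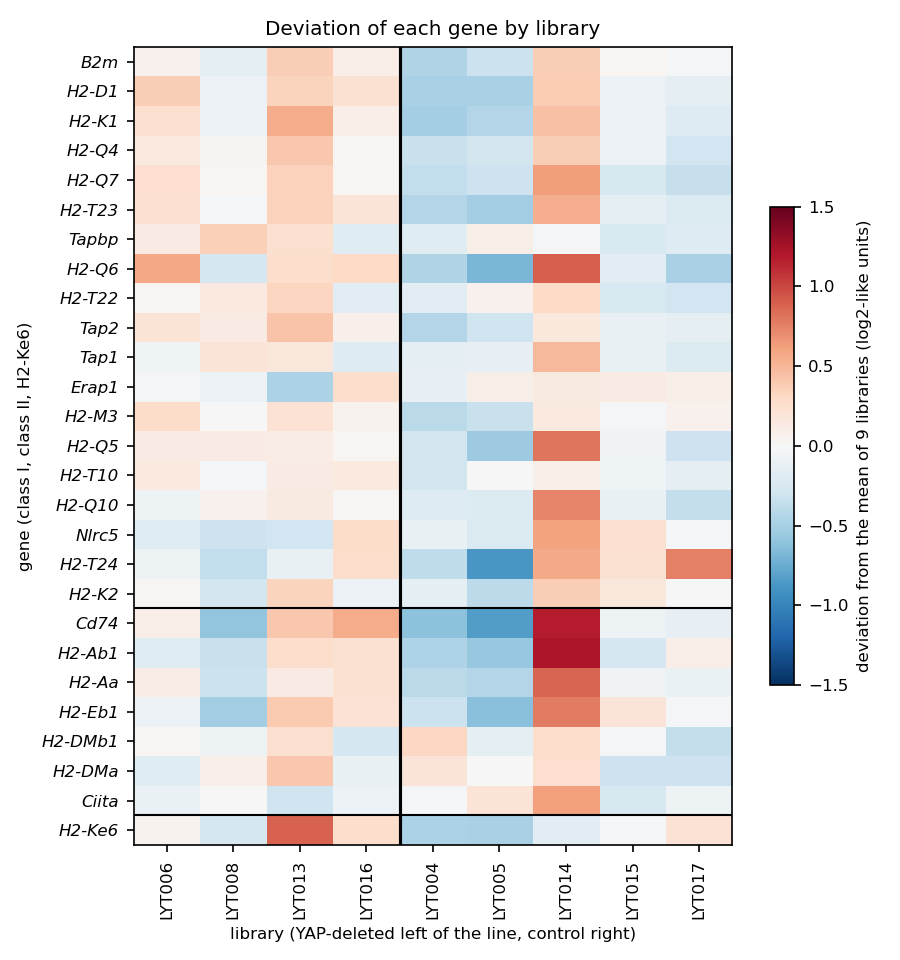
Deviation of each of 27 antigen presentation genes from its mean over 9 libraries, in log2-like units, with YAP-deleted libraries left of the vertical line and control libraries right of it. Colours are capped at 1.5 units. The LYT014 column is red for nearly all class I and class II genes, LYT013 is red for most class I genes, and LYT004 and LYT005 are blue for most.

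YAP-deleted LYT008, the lowest YAP-deleted library in class I, and the control libraries LYT004 and LYT005, the lowest of all, also had the highest levels of cell cycle transcripts. A list of 15 cell cycle genes, chosen after these values were seen, summed to 2313, 18487, 2947 and 2037 normalised counts in LYT006, LYT008, LYT013 and LYT016, against 20010.3, 27244, 6999, 2189 and 2009 in LYT004, LYT005, LYT014, LYT015 and LYT017. LYT008 lay above LYT004 and LYT005 in H2-K1, H2-D1, H2-Q7 and H2-T23. Its cell cycle sum was the lowest of the 3, and the part of cell cycling in the class I values was not tested. The libraries fall into code ranges 4 to 8 and 13 to 17, whose meaning the labels do not give. Within codes 4 to 8, which hold no library whose Yap1 level contradicts the label, 14 of 24 class I genes were higher in both YAP-deleted libraries than in both control libraries, against 20.8% of all genes. H2-K1 differed there by 0.55 log2 units, H2-D1 by 0.63, H2-T23 by 0.59 and Tap2 by 0.53. Within codes 13 to 17, which hold LYT013 and LYT014, the same 4 differences were 0.28, 0.23, 0.21 and 0.28. There 3 of 24 class I genes were higher without overlap (H2-Q1, H2-Q2 and H2-T10), against 11.1% of all genes, a share near its background. H2-Q2 rested on 1 recovered count in LYT013 and 1 in LYT016, and H2-Q1 on 17 and 13 against 9, 7 and 2.

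Signals upstream of the MHC genes were read from the same libraries, with Irf1, Ifng and Cxcl9 named after their values were seen. Irf1, an interferon-induced factor that acts on class I promoters, had 2981, 3641 and 2767 normalised counts in LYT006, LYT008 and LYT016 and 15613 in LYT013, against 3450.3, 2765, 4329 and 2678 in LYT004, LYT005, LYT015 and LYT017 and 15644 in LYT014. LYT013 and LYT014 were nearly equal and far above the other 7, whose groups overlapped. Ifng had no count in any library, and a count of 0 allows up to 3 counts in each. That holds for transcripts of the sorted cells, and interferon gamma reaching them from other cells was not measured. The 7 genes of inflammatory stroma, which include the interferon-induced chemokines Cxcl9, Cxcl10 and Cxcl11, summed to 4245, 2630.4, 8061 and 2709, against 2501, 2306, 8488, 3359 and 2179.9. LYT013 and LYT014 led again, but Cxcl10 alone supplied most of both sums, at 5890 and 5926 counts. Cxcl11 had 0.834 to 6.42 counts over the 9 libraries. Of the same list, Ccl19 was highest in LYT013, at 1279, and Il33 was lowest there, at 731. Cxcl9 was 143 in LYT013 and 726 in LYT014. Irf1 and H2-K1 were highest in both LYT013 and LYT014, whereas Nlrc5, Cd74 and H2-Aa, like Cxcl9, were lower in LYT013 than in LYT014.

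None of 8 further lists of the pathway had a gene that passed the test in either comparison. For the immunoproteasome and its PA28 activator, which shape the peptides for class I, 6 of 7 differences were positive with 9 libraries (median 0.29) and 6 of 7 with 7 (median 0.13). With 7 libraries 2 of the 7, Psmb9 and Psmb10, were higher without overlap, against 3.93% of all genes. Psmb10, an immunoproteasome subunit, had 1228, 1434 and 1206 normalised counts and, in LYT013, 3073, against 806, 1176, 1204 and 1077 in the 4 control libraries and 1248 in LYT014. Psme1, a PA28 subunit, had 1433, 1392 and 1463 and, in LYT013, 3108, against 1084, 1328, 1401 and 1437 and, in LYT014, 1495. LYT013 stood above the rest in both, and also in the ordinary catalytic subunits. Psmb5 had 1230.2 in LYT013 and 457 to 679 elsewhere, and Psmb6 had 2334 in LYT013 and 865 to 1188 elsewhere. The 3 ordinary subunits had positive differences with 9 libraries and 2 of 3 with 7 (median 0.03).

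Of 14 other loading factors 6 were positive with 9 libraries and 5 with 7, and Tpp2, a cytosolic peptidase, had 992, 1060.1, 784 and 1169.7 in the YAP-deleted libraries, against 1231, 1361, 1216, 1273 and 1267 in the control libraries, a lower level without overlap in both comparisons. Its difference was −0.34 ± 0.11 with 9 libraries (limma adjusted p = 0.649). Of all genes, 1.15% were lower without overlap with 9 libraries and 3.66% with 7. Of 19 tested genes of interferon signalling 11 were positive in both comparisons. Ifnar1, a receptor chain for type I interferon, was lower without overlap in both (−0.13 ± 0.08 with 9 libraries, limma adjusted p = 0.653). The shares of all genes lower without overlap were the same 1.15% and 3.66%. Its groups were barely apart, at 1729 in YAP-deleted LYT006 against 1743 in control LYT017. Of 15 factors of the SXY and kappa B elements and their regulators 7 were positive with 9 libraries and 9 with 7, among them Rela, an NF-kappa B subunit, at 0.26 ± 0.15 and 0.21 ± 0.13. Of 12 tested genes of endosomal class II processing 9 and 10 were positive, and the protease Ctsz and the legumain gene Lgmn were higher without overlap in both comparisons, against 1.69% of all genes with 9 libraries and 3.93% with 7, at 0.36 ± 0.16 and 0.17 ± 0.10 with 9 libraries (adjusted p = 0.649 and 0.652). Of 11 tested class I-like genes outside the MHC 6 were positive in both, with Fcgrt, the neonatal Fc receptor, at 0.39 ± 0.14 with 9 libraries (adjusted p = 0.649). Of 10 tested costimulators and checkpoint ligands 6 and 5 were positive, and Cd86, a costimulator of antigen-presenting cells, had 0 to 13.6 counts.

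H2-Ke6, the gene of neither class, had 277, 214 and 330.4 normalised counts in LYT006, LYT008 and LYT016 and 536 in LYT013, against 175, 173, 257 and 316 in LYT004, LYT005, LYT015 and LYT017 and 229 in LYT014. LYT013 alone stood out, and the other libraries overlapped. It differed by 0.43 ± 0.23 with 9 libraries and 0.22 ± 0.20 with 7 (limma adjusted p = 0.649 and 0.902), and shares 76.1% of its 31-base words with the annotated gene Gm20427. H2-K2, annotated as a pseudogene, had 20.9 to 63.4 normalised counts over the 9 libraries, and its groups overlapped. It differed by −0.0048 ± 0.18 with 9 libraries and −0.02 ± 0.16 with 7 (limma adjusted p = 0.994 and 0.985). The remaining class I names H2-Bl, H2-M2, H2-M5, H2-Q1 and H2-Q2 averaged between 0.573 and 6.48 normalised counts, and none was called.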

How the data were processed

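The members and gene lists were chosen with earlier results of these data known. The authors deposited 1 variance-stabilised value per gene name and library, on a log2-like scale. The submitters' processing notes name kallisto 0.44.0, sleuth and bcl2fastq 2.20, without the role of each. Per the labels' protocols, poly-A and ribosomal depletion preparations were used, and they do not say which library received which. Inverting the transform returned whole numbers within 0.1 for 100% of values in every library. As planned for values on such a scale, limma 3.58.1 (R 4.3.3) was run on the deposited values. It fitted a linear model on group with trended empirical Bayes moderation and two-sided tests. A count model had been planned only for a file of counts. Genes had to exceed the table's lowest value in 4 or more libraries, and p-values were adjusted over all of them (Benjamini-Hochberg). The log2-like scale understates changes of low genes. The column used for LYT013 has a suffix added to its library code, for which no reason is given. Full values were given for genes fixed by name and for up to 4 with the smallest p per comparison. Lengths and positions came from GENCODE M21 (GRCm38). The fit was tested on simulated data. Alternatives changed filter, scaling, transform, moderation, libraries and code range.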

Additional observations from a re-analysis of the deposited data

Results flagged for a closer look

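Within 64 groups of 4 or 5 libraries of 1 gene, 8 held a library far from the others of its group, and chance alone gives about 1 in 20. All values here are on the deposited log2-like scale. The library labelled control LYT014 stood above the other 4 control libraries in H2-Q7, at 12.99 against 12.00 to 12.12, in H2-Q10, at 9.11 against 8.02 to 8.26, and in Tap1, at 11.10 against 10.41 to 10.50. Its Yap1 level goes against its label. Control LYT004 had the lowest Erap1 value of its group, 11.13 against 11.34 to 11.39. YAP-deleted LYT008 had the lowest H2-T10 value of its group, 8.51 against 8.67 to 8.69. The other 3 rest on 1 or 2 counts: H2-M5 was 5.25 in YAP-deleted LYT008 and at the floor of 4.96 in control LYT014, and H2-Q2 was 5.36 in control LYT005.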

How the results depend on the processing

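No antigen presentation gene was called under any alternative, with smallest adjusted p-values of 0.420 (9 libraries as labelled) and 0.112 (7 libraries). Of 500 values of 25 genes under 20 alternatives with 9 libraries, 461 kept their sign and 39 in 9 genes turned. With 7 libraries and 14 alternatives 331 of 350 kept it and 19 in 6 genes turned. The cause was not tested. Over all genes, limma called 3 higher and 9 lower without LYT013 and LYT014 when the 17203 genes of the 9-library filter were kept (3 and 8 with the 7-library filter), 1 higher within codes 4 to 8, and, in 7 libraries with code range as a covariate, 7 higher and 18 lower. Leaving out single libraries gave 0 higher and 0 lower with 9, and 1 to 3 higher and 1 to 7 lower with 7. Class I genes higher without overlap numbered 0 as labelled, 1 after quantile normalisation, 8 without LYT013 and LYT014, 14 within codes 4 to 8 and 3 within codes 13 to 17, against 1.69%, 1.91%, 3.84%, 20.8% and 11.1% of all genes. Leaving out single libraries gave 0 to 8 (all genes 2.03% to 4.23%), with 8 when LYT014 was left out, and 8 to 11 in 7 libraries (all genes 5.64% to 9.29%). Class II genes higher without overlap numbered 3 of 7 within codes 4 to 8 (all genes 20.8%), 0 when single libraries were left out with 9, and 0 to 2 with 7 (2 without LYT008, all genes 7.57%). Positive class II differences numbered 2 to 6 of 7 when single libraries were left out with 9, with 2 without LYT013 or without LYT005.

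Without LYT013 and LYT014, Erap1, H2-Ab1 and H2-T24 became 0.0079, 0.20 and 0.0088. Within codes 13 to 17, H2-Aa, H2-Eb1, H2-Q10, H2-Q5 and Tap1 became −0.0617, −0.0099, −0.0097, −0.0758 and −0.0703. H2-K2 became 0.0724 after quantile normalisation, 0.0014 on log2(normalised count + 1), 0.0307 with the code covariate and 0.14 within codes 4 to 8. H2-Ab1 became 0.0531 after quantile normalisation, 0.11 on log2(normalised count + 1), 0.0892 with limma voom, 0.062 with the code covariate and 0.27 within codes 4 to 8, where H2-T24 became 0.41. With 7 libraries Erap1 became −0.0011 after quantile normalisation and −0.016 with voom, H2-K2 0.0161 after quantile normalisation and 0.0129 with the covariate, and Nlrc5 0.0231 with the covariate. Leaving out single libraries with 9, differences ran from −0.044 to 0.28 (H2-Aa), −0.15 to 0.29 (H2-Ab1), −0.16 to 0.20 (H2-Eb1), −0.12 to 0.0881 (H2-K2), −0.0214 to 0.25 (H2-Q10), −0.37 to 0.0425 (H2-T24) and −0.0105 to 0.17 (Tap1). With 7 they ran from −0.0917 to 0.0565 (Ciita), −0.0993 to 0.0776 (Erap1), −0.11 to 0.26 (H2-Eb1), −0.12 to 0.0618 (H2-K2), −0.26 to 0.28 (H2-T24) and −0.21 to 0.0798 (Nlrc5). No paired analysis was possible because the library codes are unique and no number is shared between the groups. Depth limits the class II genes, most of which had under 100 normalised counts, and 4 against 5 libraries limits all tests.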
